A study of Mus musculus with 6 samples.

Results

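The genes described here encode the insulin-like growth factors, their receptors and their binding proteins, and their transcripts were measured in the retina of newborn mice with and without Meg2. Of 10 genes chosen by symbol, 10 were found in the value table, among 19938 gene symbols that had a transcript cluster (a group of probes covering 1 transcript) to themselves. Where a gene had several such clusters, the cluster with the highest mean signal over the 6 arrays stood for it. The choice of these genes was made with earlier results of the same arrays known, so their differences between genotypes are given as a description.

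Retinae came from C57BL/6NTac mice on postnatal day 0. The knockout group consisted of 3 animals lacking Meg2, the protein tyrosine phosphatase encoded by Ptpn9, and the control group of 3 wild-type animals, with no treatment in either group. Both retinae of an animal went into 1 sample, and the labels call the samples biological replicates, numbered 1 to 3 in each genotype. The labels do not say whether the deletion was limited to a cell type.

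The insulin-like growth factors IGF1 and IGF2 are secreted peptides that drive growth and survival through the type 1 receptor and, for IGF2, through a splice form of the insulin receptor. The mannose 6-phosphate receptor encoded by Igf2r takes up IGF2 and delivers it to lysosomes. Binding proteins in the extracellular space hold the growth factors, prolong their life and control their access to receptors, and proteases that cut the binding proteins release them. In the eye the system takes part in the growth of neurons and vessels.

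Each array gave normalised log2 signals, with a median between 7.84 and 7.91 over all clusters of the table. Ptpn9 signal lay between 9.28 and 9.58 on the knockout arrays and between 9.93 and 10.05 on the wild-type arrays. It was read by 1 cluster, and the labels do not say which exons the mutation removes. Of 16 neural retina markers measured, such as Pax6 and Crx, 15 had a mean above 8.51, the median over the 23410 clusters tested. Both replicate 2 arrays, although each is labelled as 1 animal, carried Xist at 12.54 and 12.55 (knockout and wild type) together with the Y-linked gene Eif2s3y at 7.66 and 7.76. On the replicate 1 arrays Xist was at 12.58 and 12.73 with Eif2s3y at 5.08 and 5.49, and on the replicate 3 arrays Xist was at 6.26 and 6.52 with Eif2s3y at 10.03 and 9.39. The pattern was therefore shared between genotypes within each replicate number, and values without the replicate 2 arrays are given below.

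Promoters of 4 binding proteins are shown, a choice made with the differences between genotypes known. RefSeq promoters (build GRCm38.p6) were matched by symbol for 9 of the 10 genes. The 120 bases that end just before the annotated start are printed 5′ to 3′ on the gene's own strand. Capitals mark matches on either strand to any of 4 motifs. The TATA box was searched with the letters TATAAA and with the variant TATATA, which can overlap it. The GC box bound by SP1 was searched as GGGCGG. The forkhead site of the FOXO factors, which act downstream of insulin signalling, was searched as GTAAACA. The first 3 belong to binding proteins whose knockout arrays all lay above the wild-type arrays, as they did in 4.08% of all clusters. The last is that of Igfbp2, whose arrays overlapped.
Igfbp7, chr5:77408046-77408165, minus strand: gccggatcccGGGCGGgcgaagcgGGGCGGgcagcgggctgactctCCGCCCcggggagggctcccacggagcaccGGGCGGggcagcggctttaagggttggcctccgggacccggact
Igfbp3, chr11:7213924-7214043, minus strand: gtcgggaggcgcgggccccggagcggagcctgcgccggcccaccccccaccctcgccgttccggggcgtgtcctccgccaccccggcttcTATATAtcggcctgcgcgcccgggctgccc
Igfbp5, chr1:72874866-72874985, minus strand: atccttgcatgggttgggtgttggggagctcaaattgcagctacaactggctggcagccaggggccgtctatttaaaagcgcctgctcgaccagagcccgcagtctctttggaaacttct
Igfbp2, chr1:72824360-72824479, plus strand: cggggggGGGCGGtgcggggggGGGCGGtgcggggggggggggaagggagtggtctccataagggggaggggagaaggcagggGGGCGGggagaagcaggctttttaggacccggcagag

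The Igfbp7 stretch held GGGCGG 4 times and the printed Igfbp2 stretch 3 times, while the other Igfbp2 start held it 0 times. Of the 32851 promoters of the table, 4.09% held it at least 4 times within the 250 bases before the start. The share with at least 3 was not computed. At least 1 GGGCGG was found in 32.7% of these promoters. Igfbp3 held TATATA from 30 bases before its start, a motif found in 5.25% of promoters. TATAAA was held by 1 of the 13 annotated starts of the 9 genes, that of Igfbp4, and by 12.4% of all promoters. GTAAACA was in 0 of the 13 starts and in 3.17% of all promoters. None of the 4 motifs was found in the Igfbp5 stretch. Igf2 had 4 annotated starts and Igfbp2 had 2, each with 1 cluster on the array, so their signals could not be assigned to a start.

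The comparison asked how the transcripts of this family differed between knockout and wild-type retina. Igfbp7, Igf2, Igfbp5 and Igfbp3 had higher signal on all 3 knockout arrays than on all wild-type arrays. Over all 23410 clusters tested, arrays did not overlap in this direction in 4.08% and in the opposite direction in 4.35%. The choice of the genes was made with these results known, and nothing is read from the count of 4 in 10. Of the 10 genes, 8 had a difference (knockout minus wild type) above 0 and 2 below it, and their median difference was 0.070 on the log2 scale, against 0.0012 over all clusters tested. In limma 0 of the 10 genes and 0 of all clusters (0%) passed an adjusted p of 0.05, with 4 of the 10 and 3.43% of all clusters at an unadjusted p under that value. The retina was measured as a whole, so more cells of a type and more RNA per cell cannot be told apart.

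**Figure D1:**
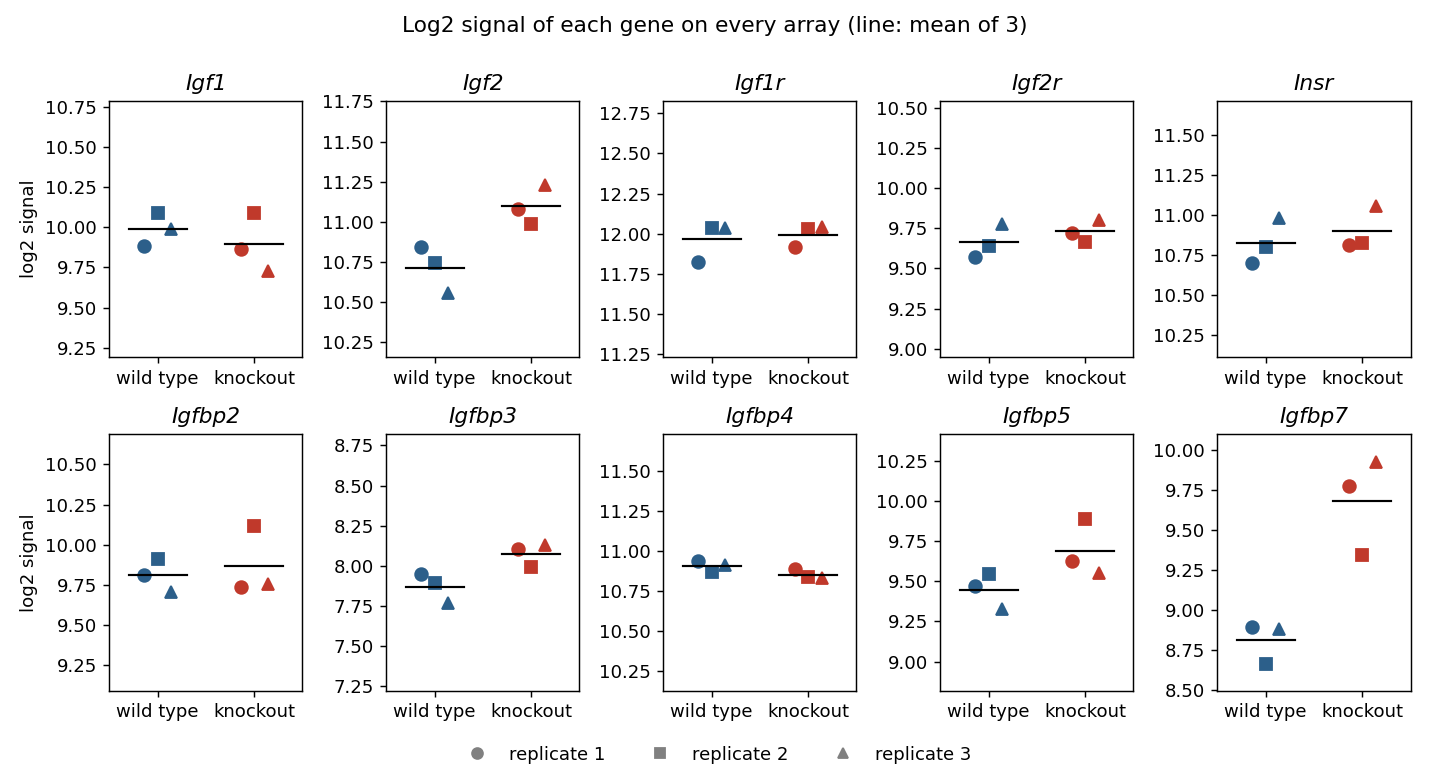
Log2 signal (vertical axis, each panel spanning the same range) of the 10 genes on the 3 wild-type (blue) and 3 knockout (red) arrays, with the replicate number as the symbol and the mean as a line. The groups are apart in Igfbp7, Igf2, Igfbp5 and Igfbp3 and overlap in Igf1, Igf1r, Igf2r, Insr, Igfbp2 and Igfbp4.

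Among the ligands, Igf2, the growth factor that predominates before birth, read 11.08, 10.99 and 11.23 on knockout replicates 1, 2 and 3 and 10.84, 10.74 and 10.56 on the wild-type replicates. Every knockout array was above every wild-type array, and the replicate 3 arrays held both the highest and the lowest value. The means were 11.10 ± 0.12 and 10.71 ± 0.15 (SD, n = 3), a difference of 0.39 (SE 0.091) or 1.31-fold, which did not pass correction over all clusters (limma, adjusted p = 1.00). Within replicate numbers 1, 2 and 3 the Igf2 difference was 0.24, 0.25 and 0.67. Without both replicate 2 arrays it was 0.45, and without wild-type replicate 3 it was 0.31.

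Igf1, the ligand that predominates after birth, read 9.86, 10.09 and 9.73 in knockout retina and 9.89, 10.09 and 9.99 in the wild type. The groups overlapped, and the replicate 2 array was the highest of its genotype in both. The means were 9.89 ± 0.18 and 9.99 ± 0.10 (SD, n = 3), and the difference was -0.094 (SE 0.098), with a 95% interval for this gene alone from -0.32 to 0.13 (limma, adjusted p = 1.00). Without knockout replicate 3 the Igf1 difference was -0.010. Signals of different clusters cannot be ranked against each other, but their ratio within an array can be followed from array to array. The log2 signal of Igf2 minus that of Igf1 was 1.22, 0.90 and 1.503 in knockout retina and 0.96, 0.65 and 0.57 in the wild type, so knockout replicate 2 lay below wild-type replicate 1.

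The receptor transcripts overlapped between genotypes in every case. Igf1r, the tyrosine kinase receptor of both ligands, read 11.92, 12.03 and 12.04 in knockout retina and 11.82, 12.04 and 12.03 in the wild type. In both genotypes the replicate 1 array was the lowest and the other arrays lay close together. The Igf1r difference was 0.030 (SE 0.076), with a 95% interval from -0.14 to 0.20. Insr, the insulin receptor, read 10.81, 10.83 and 11.06 in knockout retina and 10.70, 10.80 and 10.98 in the wild type, with replicate 3 the highest in both. Its difference was 0.071 (SE 0.094), with an interval from -0.14 to 0.28. Insr was the 1 gene of the family with a pair of clusters, and the cluster left out, with a mean of 10.56 against 10.86 for the one used, differed by 0.086 (SE 0.073). Igf2r, the receptor that clears IGF2, read 9.72, 9.67 and 9.80 in knockout retina and 9.57, 9.64 and 9.78 in the wild type. Its difference was 0.068 (SE 0.072), with an interval from -0.095 to 0.23. With the replicate number as a block the intervals were narrower, from -0.085 to 0.14 for Igf1r, -0.040 to 0.18 for Insr and -0.053 to 0.19 for Igf2r, and each still held 0. The signs of the Igf1r and Insr differences were not stable, as Igf1r was at -0.041 without wild-type replicate 1 and Insr at -0.0086 without knockout replicate 3. Igf2r kept its sign, at 0.022 without wild-type replicate 1 and 0.12 without wild-type replicate 3. Igf2 signal minus that of its clearance receptor Igf2r was 1.36, 1.32 and 1.42 in knockout retina and 1.27, 1.10 and 0.78 in the wild type, without overlap. Igf2 did not overlap by itself, and the share of such ratios over all pairs of clusters was not computed.

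Among the binding proteins, Igfbp7 stood farthest apart. It encodes a secreted protein of low affinity for the growth factors, deposited around blood vessels. Igfbp7 read 9.77, 9.34 and 9.93 on knockout replicates 1, 2 and 3 and 8.90, 8.67 and 8.88 on the wild-type replicates. The lowest knockout array lay well above the highest wild-type array, and replicate 2 was the lowest in both genotypes. The means were 9.68 ± 0.30 and 8.81 ± 0.13 (SD, n = 3), a difference of 0.87 (SE 0.14) or 1.82-fold (limma, adjusted p = 0.449). Within replicate numbers the Igfbp7 difference was 0.88, 0.68 and 1.04. Leaving out each array in turn gave 0.74 to 1.04, and without both replicate 2 arrays it was 0.96. Its adjusted p in limma lay between 0.0711 and 1.00 over all alternatives, and was 0.0869 in the fit blocked by replicate number.

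Igfbp5, which binds the growth factors with high affinity and attaches to extracellular matrix, read 9.63, 9.89 and 9.55 in knockout retina and 9.47, 9.55 and 9.33 in the wild type. The separation was narrow. The lowest knockout value was 9.553 and the highest wild-type value 9.546. The order turned with other scalings, to 9.529 against 9.548 with arrays centred on their medians and to 9.523 against 9.542 with cyclic loess. The Igfbp5 difference was 0.24 (SE 0.096; limma, adjusted p = 1.00), a 1.18-fold ratio, with 0.16, 0.34 and 0.22 within replicate numbers. Without knockout replicate 2 it was 0.14.

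Igfbp3, the main carrier of the growth factors in blood, read 8.10, 7.99 and 8.13 in knockout retina and 7.95, 7.89 and 7.77 in the wild type. The groups did not overlap, and the lowest value was again that of wild-type replicate 3. The Igfbp3 difference was 0.21 (SE 0.070; limma, adjusted p = 1.00), a 1.15-fold ratio, with 0.15, 0.10 and 0.36 within replicate numbers. Igfbp3, Igf2 and Igfbp7 kept their arrays apart under median centring and cyclic loess, without both replicate 2 arrays and without each array in turn.

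Igfbp2, which is abundant in the developing eye and brain, read 9.74, 10.12 and 9.76 in knockout retina and 9.81, 9.91 and 9.71 in the wild type. The groups overlapped, and replicate 2 was the highest in both. The Igfbp2 difference was 0.060 (SE 0.11), with a 95% interval from -0.18 to 0.30, and was -0.064 without knockout replicate 2 and -0.014 without both replicate 2 arrays. Igfbp4, a binding protein that blocks growth factor action until the protease PAPP-A cuts it, read 10.89, 10.84 and 10.83 in knockout retina and 10.94, 10.87 and 10.91 in the wild type. It varied least of the 10 genes, with an SD of 0.029 and 0.034. Its difference was -0.052 (SE 0.055), with an interval from -0.18 to 0.073. Igfbp4 was the 1 gene lower in the knockout within 3 of 3 replicate numbers, as were 15.9% of all clusters. The other direction held for 6 genes of the family, Igf2, Igf2r, Insr, Igfbp3, Igfbp5 and Igfbp7, and for 16.5% of all clusters.

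**Figure D2:**
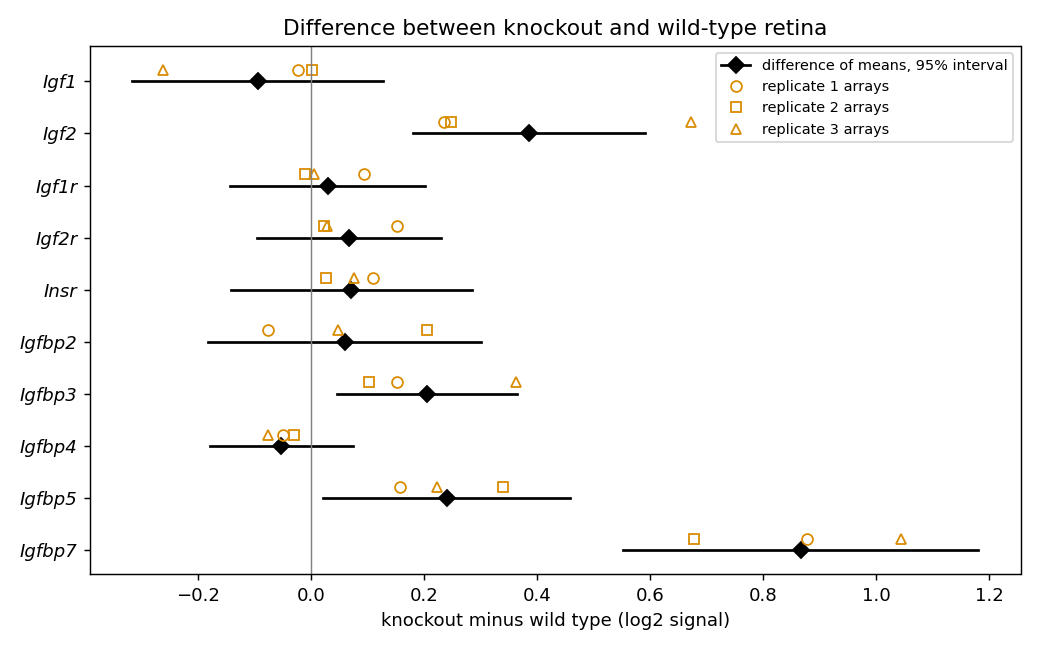
Knockout minus wild type on the log2 scale (horizontal axis) for each gene, with the difference of means as a diamond, its uncorrected 95% interval from limma as a line and the difference within each replicate number as an open symbol. Igfbp7 lies at 0.87 with its replicate numbers between 0.68 and 1.04, and the replicate 3 arrays lie farthest from the others in Igf2, Igf1 and Igfbp3, among others.

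Several of these genes lie beside another gene of the family in the mouse genome (GRCm38.p6). Igfbp3 (chr11:7206086-7215498) and Igfbp1 (chr11:7197787-7202546), an insulin-responsive binding protein of liver, are 3539 bases apart. Igfbp1 was dim, with a mean of 7.28, and Igfbp3, at 7.97, was also below the median signal of all clusters (8.51). Igfbp1 differed by -0.045 (SE 0.11) beside the 0.21 of Igfbp3. Within arrays, Igfbp3 minus Igfbp1 was 0.65, 0.74 and 1.05 in knockout retina and 0.61, 0.47 and 0.61 in the wild type, without overlap. Igfbp2 (chr1:72824480-72852474) and Igfbp5 (chr1:72858065-72874865) are 5590 bases apart, with the promoters printed above on opposite strands. Igfbp5 minus Igfbp2 was -0.11, -0.23 and -0.20 in knockout retina and -0.34, -0.36 and -0.38 in the wild type, also without overlap. Igfbp3 and Igfbp5 did not overlap by themselves, and the share of such ratios over all pairs of clusters was not computed. Nothing is read from the separation of these ratios. Igf2 (chr7:142650768-142666816) lies 11839 bases from Ins2, 1 of the mouse insulin genes, which differed by 0.039 (SE 0.11). Ins2 was dim as well, with a mean of 7.10. Igf2 minus Ins2 overlapped between genotypes, as knockout replicate 1 was at 3.69 and wild-type replicate 1 at 3.72. Igfbp7 lies on chromosome 5, at chr5:77349240-77408045.

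Markers of vessels, of tissue around the retina and of the retina itself were read on the same arrays, and 50.7% of all clusters tested had a difference above 0. Of 14 endothelial markers, 13 had a difference above 0, with a median of 0.15 and the highest at 0.54 for Cdh5 (VE-cadherin). Their summed signal, on the log2 scale, lay between 12.71 and 13.01 in knockout retina and between 12.73 and 12.89 in the wild type. Of 11 pericyte and mural markers 8 were above 0, with a median of 0.084, from Vtn at -0.068 to Rgs5 at 0.50. Their summed signals were 11.30 to 11.47 against 11.31 to 11.33. Of 11 periocular mesenchyme markers 6 were above 0, with a median of 0.040, from Ogn at -0.060 to Bgn at 0.59 (SE 0.097). Their summed signals were 11.15 to 11.31 against 11.05 to 11.19. For 10 microglia markers the count was 8 and the median 0.11, from P2ry12 at -0.13 to C1qb at 0.47. Their summed signals were 11.15 to 11.48 against 11.11 to 11.22. For 12 lens markers the count was 10 and the median 0.075, from Lim2 at -0.056 to Cryba1 at 0.54. Their summed signals were 11.45 to 11.67 against 11.35 to 11.52. Pigment epithelium and melanocyte markers had 8 of 11 above 0, with a median of 0.037, from Mitf at -0.083 to Ttr at 0.28. Their summed signals were 10.70 to 11.08 against 10.72 to 10.85. Of 16 neural retina markers 13 were above 0, with a median of 0.028, from Rcvrn (recoverin) at -0.23 to Crx at 0.12, and summed signals of 15.48 to 15.61 against 15.50 to 15.55. No marker of these lists passed correction, no marker was at 0, and each summed range overlapped between genotypes. Of the highest markers of each list, Cdh5, Rgs5, Bgn, C1qb and Cryba1 did not overlap between genotypes, while Ttr and Crx did. Over all clusters 4.08% did not overlap in this direction. Bright genes weigh most in the sums, and Kdr, the brightest endothelial marker, was the 1 of that list below 0 (-0.070). The mean of markers, each centred on its own mean, was also read within replicate numbers. It was higher in the knockout within every number for the endothelial, mural, mesenchyme, microglia and lens lists. It was not for the pigment epithelium and neural retina lists.

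On the centred scale (each marker minus its own mean over the 6 arrays), the endothelial mean was 0.14, -0.082 and 0.23 on knockout replicates 1, 2 and 3 and -0.018, -0.14 and -0.13 on the wild-type replicates. Within each replicate number the knockout array had the higher endothelial mean, as it had the higher Igfbp7 signal. Across numbers, knockout replicate 2 (-0.082) lay slightly below wild-type replicate 1 (-0.018) in the endothelial mean. Arrays of different numbers also differ in Xist and Eif2s3y signal, and 3 of the 14 endothelial markers were above the median signal. Nothing about Igfbp7 is read from the order across numbers. With the endothelial mean subtracted on each array, Igfbp7 stood at 9.63, 9.43 and 9.70 in knockout retina and 8.91, 8.81 and 9.01 in the wild type, a difference of 0.67. Subtracting each of the other 5 marker means left an Igfbp7 difference of 0.72 to 0.80. For Igf2 the same subtractions left 0.19 (endothelial) to 0.32 (pigment epithelium), and the arrays did not overlap in any of the 6. For Igfbp5 they left 0.046 (endothelial) to 0.17, with overlap in all 6. For Igfbp3 they left 0.012 (endothelial) to 0.14, with overlap in 5 of the 6. The signal of a marker list and that of a gene need not scale alike, and the subtraction gives no estimate of the part that these cells had in the differences, which was not tested.

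**Figure D3:**
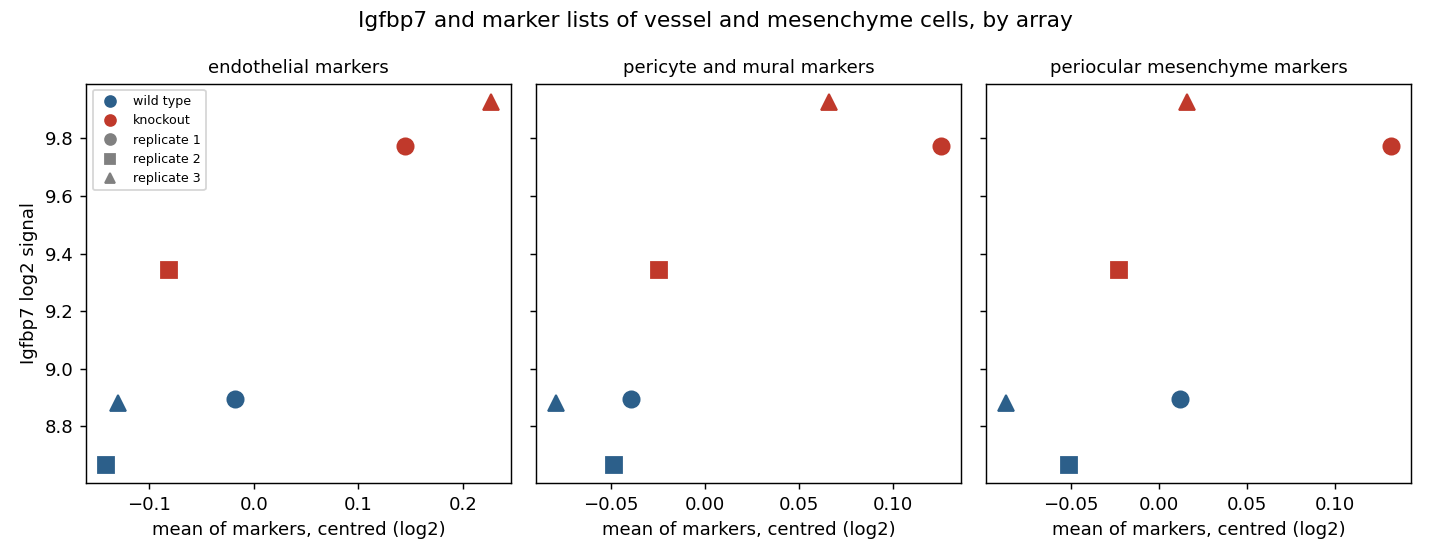
Igfbp7 log2 signal (vertical axis) against the centred mean of endothelial, pericyte and mural, and periocular mesenchyme markers (horizontal axes, log2; the scales differ) on each array. Blue is wild type, red is knockout and the symbol is the replicate number. Within each replicate number the knockout array has the higher marker mean in every panel. Knockout replicate 2 lies within the wild-type range of the endothelial and mesenchyme means and just above it for the mural mean. In Igfbp7 every knockout array lies above all wild-type arrays, and the part that these cells had in this was not tested.

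Genes with the most similar pattern over the 6 arrays were sought among 10972 single-gene clusters above the median signal, by the root mean square distance of the centred log2 values. Most vessel and mesenchyme markers lay below that signal and so were not candidates. Above it were 3 of 14 endothelial, 2 of 11 mural, 3 of 11 mesenchyme and 1 of 10 microglia markers. For Igfbp7 the nearest of the candidates were C1qb, a complement chain made by microglia, at 0.21, Unc13c, a vesicle priming protein, at 0.21, and Abca1, a cholesterol efflux transporter, at 0.28. Their own differences between genotypes were 0.47, 0.62 and 0.46. For Igf2 they were Epas1, a hypoxia-inducible factor subunit abundant in endothelium, at 0.067, the small nucleolar RNA Snord49b at 0.091 and Pdgfra, a receptor of mesenchymal and astrocyte precursors, at 0.11. For Igfbp5 they were Xpa, a DNA repair gene, at 0.052, the ribosomal protein gene Rps15a at 0.052 and the transporter gene Slc16a14 at 0.059. These genes share the arrays, the animals and the genotype contrast with the gene they resemble. The other 7 genes spanned less than 0.5 over the 6 arrays and were not compared in this way.

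The rest of the pathway was followed in lists of 82 genes, of which 68 were measured by a cluster of their own. In limma 0 of the 68 passed correction in either direction, beside 0% of all clusters. Differences lay above 0 in 38 and below in 30, with a median of 0.011. Arrays did not overlap in 4 with higher and 5 with lower knockout signal, beside 4.08% and 4.35% of all clusters.

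Among 6 other genes of the family that were measured, differences ran from -0.045 for Igfbp1 to 0.073 (SE 0.084) for Igfbp6, a binding protein that prefers IGF2. Most of these genes were dim, and 1 of the 6 had a mean above the median signal of all clusters. Igfals, the acid-labile subunit that completes the circulating complex, differed by 0.052 (SE 0.080), Igfbpl1 by -0.0024 (SE 0.092) and the orphan insulin receptor-related gene Insrr by -0.032 (SE 0.062). Among 8 proteases and their inhibitors, the gene farthest above 0 was Stc1, whose product stanniocalcin inhibits PAPP-A. Stc1 averaged 8.07 ± 0.088 in knockout retina and 7.80 ± 0.17 in the wild type, with a difference of 0.26 (SE 0.092; limma, adjusted p = 1.00) without overlap, and 0.16 without wild-type replicate 1. Pappa, the gene of the IGFBP4 and IGFBP5 protease PAPP-A, differed by 0.12 (SE 0.061), also without overlap. Pappa2 differed by -0.0011 (SE 0.10), the related inhibitor Stc2 by 0.094 (SE 0.096) and the secreted serine protease Htra1 by 0.075 (SE 0.14). The lowest of this list was Adam28 at -0.11 (SE 0.062), with a dim mean signal of 6.12.

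Proteins that bind Igf2 messenger RNA and control its stability and translation were the list farthest below 0. Igf2bp1 averaged 9.95 ± 0.073 in knockout retina and 10.16 ± 0.080 in the wild type, a difference of -0.21 (SE 0.067; limma, adjusted p = 1.00). Igf2bp3 averaged 9.999 ± 0.055 and 10.13 ± 0.028, a difference of -0.13 (SE 0.058; limma, adjusted p = 1.00). In both genes each knockout array lay below every wild-type array. Igf2bp1 was lower by 0.10, 0.21 and 0.32 and Igf2bp3 by 0.046, 0.13 and 0.21 within replicate numbers 1, 2 and 3. Leaving out each array in turn gave -0.25 to -0.17 for Igf2bp1 and -0.16 to -0.10 for Igf2bp3. Igf2bp1 was read by 2 clusters, and the mean of both differed by -0.29. Igf2bp2 was not analysed here.

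Inside the cell, 18 receptor adaptors and inhibitors had a median difference of 0.0037. The insulin receptor substrate gene Irs2 was the highest at 0.24 (SE 0.13), with overlap between genotypes, and Irs1 differed by 0.12 (SE 0.080). Leaving out each array in turn gave 0.12 (without knockout replicate 2) to 0.37 (without knockout replicate 1) for Irs2 and 0.065 (without knockout replicate 3) to 0.21 (without knockout replicate 1) for Irs1. Irs1 was read by 2 clusters, and the mean of both differed by 0.056. The receptor inhibitor Grb14 was the lowest at -0.15 (SE 0.084), and the imprinted inhibitor Grb10 differed by -0.039 (SE 0.087). Of the tyrosine phosphatases that act on the insulin receptor, Ptpn1 (PTP1B) differed by -0.023 (SE 0.066) and Ptprf (LAR) by -0.055 (SE 0.062). In the PI3K-AKT-mTOR arm 20 genes had a median of 0.021, from Eif4ebp1 at -0.12 (SE 0.077) to Foxo3 at 0.13 (SE 0.080). Akt1 differed by 0.052 (SE 0.056) and Foxo1 by 0.050 (SE 0.080). Of the RAS-ERK arm 6 genes were measured, from Map2k2 at -0.12 (SE 0.062) to Nras at 0.093 (SE 0.061). Imprinted growth genes, a group to which Igf2 and Igf2r belong, ran from Mest at -0.025 (SE 0.060) to the cell cycle inhibitor Cdkn1c at 0.12 (SE 0.065), with Dlk1 at 0.026 (SE 0.056). Their 8 measured genes had a median of 0.013. H19 was not analysed here.

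**Figure D4:**
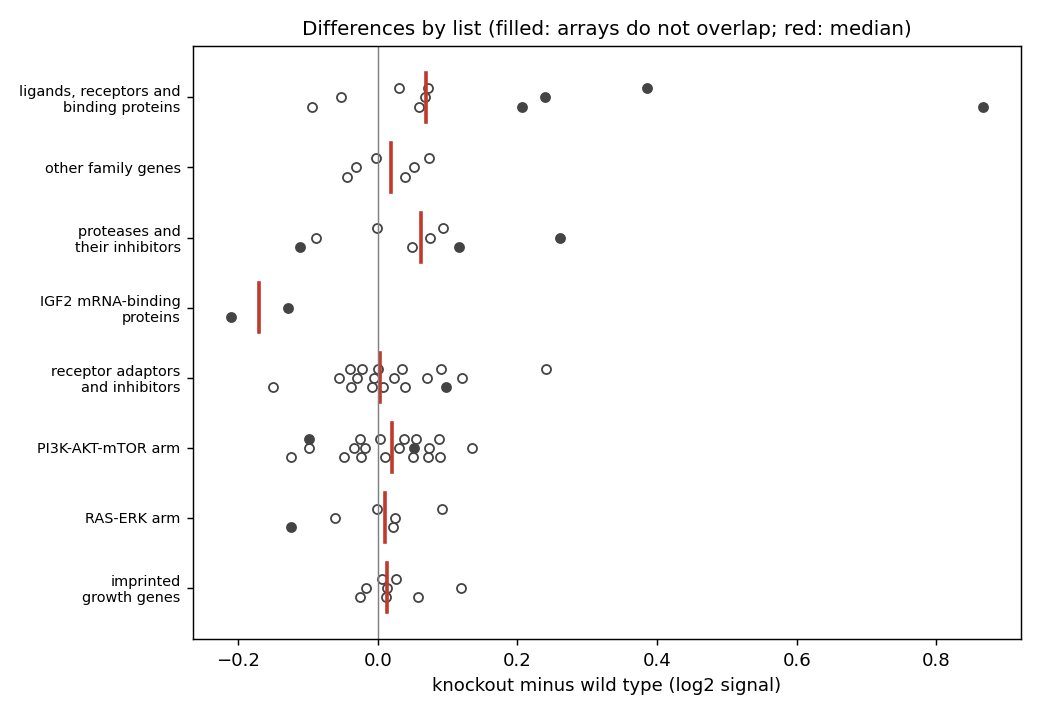
Knockout minus wild type on the log2 scale (horizontal axis) for each measured gene of the family and of 7 pathway lists, 1 point per gene. Filled points are genes whose arrays do not overlap between genotypes, and red lines are list medians, which run from -0.17 for the 2 IGF2 mRNA-binding proteins to 0.070 for the ligands, receptors and binding proteins.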

How the data were processed

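Retinal RNA was read on whole-transcript arrays, and the table deposited by the authors holds a log2 signal for each cluster, made with Affymetrix Expression Console and RMA, per the submitters' processing notes, which also name Transcriptome Analysis Console. RMA corrects background and brings all arrays to 1 distribution, which hides any change common to most genes. No source used here gives software versions or the authors' test. Of 35557 rows, 21789 carried 1 gene in the platform annotation, 1621 several and 12147 none; the Entrez identifiers of 21698 single-gene rows matched RefSeq's gene table (GRCm38.p6), which changed 0 symbols.

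Knockout and wild type (3 arrays each) were compared with limma 3.58.1 in R 4.3.3 on the 23410 clusters with a gene, without a filter, and p-values were adjusted over all of them by Benjamini-Hochberg. The script was tested on simulated data. Intervals are limma's, for 1 gene, uncorrected. An exact permutation test of 3 against 3 cannot go below p = 0.1, so none was run. p-values measure the spread between these samples. The number of arrays limits the precision. The median SE of a difference was 0.092 for the 10 genes and 0.072 for all clusters. With the replicate number as a block these were 0.058 and 0.052. The SEs printed beside differences are those without the block. With it, uncorrected intervals were 0.69 to 1.04 for Igfbp7 and 0.17 to 0.60 for Igf2. They were 0.11 to 0.37 for Igfbp5 and 0.056 to 0.36 for Igfbp3. Those of Igf1, Igfbp2 and Igfbp4 held 0, as did those of the receptors. None of the 10 genes passed correction in the blocked fit.

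The members, the pathway and marker lists and the genes named from them were chosen with earlier results of these data known. Named were all members, Ptpn9, 24 pathway genes set by symbol and the extremes of each pathway list; the markers and other genes named singly were picked with their values in view, as was the subtraction of marker means. Like patterns were sought for genes spanning over 0.5 log2. Deviations from group means correlated at 0.476, 0.485 and 0.455 between arrays of replicate number 1, 2 and 3, so the numbers were taken to pair the samples, and the fit with that block was an alternative. Scan dates are not given in those sources. Promoter sequences are RefSeq's. Python 3.11.15, pandas 2.3.3 and matplotlib 3.10.9 handled tables and figures.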

Additional observations from a re-analysis of the deposited data

How the results depend on the processing

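The count of family genes and of pathway genes past an adjusted p of 0.05 was 0 under each of the 17 alternatives. With the replicate number as a block it was also 0, with 1 of 23410 clusters past that threshold and 2063 at an unadjusted p under 0.05, against 803 without the block; the pairing changed no call on the family genes, the listed genes or the clusters of like pattern. Leaving out 1 array gave a median difference of the 10 genes of 0.041 (without wild-type replicate 1) to 0.14 (without wild-type replicate 3), against 0.070, and 4 to 6 genes without overlap; with 2 arrays in a genotype an overlap is less likely by construction. Median centring and cyclic loess left 3 genes without overlap. Of 39 named genes, 14 changed sign under at least 1 alternative, all with differences under 0.1 in size, and the cause was not tested. When each array was left out in turn, differences ran from -0.041 to 0.069 for Igf1r, -0.0086 to 0.15 for Insr, -0.064 to 0.13 for Igfbp2, -0.14 to 0.049 for Igfbp1, -0.036 to 0.11 for Igfals, -0.11 to 0.054 for Igfbpl1 and -0.058 to 0.0093 for Insrr. They ran from -0.091 to 0.068 for Pappa2, -0.015 to 0.17 for Stc2, -0.091 to 0.18 for Htra1, -0.14 to 0.029 for Grb10, -0.075 to 0.0080 for Ptpn1, -0.014 to 0.12 for Foxo1 and -0.052 to 0.010 for Mest. Some other differences kept their sign but moved by over 1.5 times, with ranges of -0.19 to -0.010 for Igf1, 0.0014 to 0.15 for Igfbp6, 0.077 to 0.14 for Pappa, -0.23 to -0.085 for Grb14, -0.085 to -0.011 for Ptprf, 0.025 to 0.069 for Akt1, -0.18 to -0.048 for Eif4ebp1, 0.061 to 0.19 for Foxo3 and 0.0032 to 0.043 for Dlk1. Without both replicate 2 arrays Igfbp2 was at -0.014 and Igfbp1 at 0.014, cyclic loess put Igfbpl1 at 0.0050, and array weights put Pappa2 at 0.034. The filter at the median signal kept 9 of the 10 family genes, without Igfbp3, and 56 of the 68 pathway genes.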
